A study of Mus musculus with 6 samples.

Results

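The clade B serpins described here are 8 protein-coding genes on mouse chromosome 1, taken by name from a list: Serpinb5, Serpinb12, Serpinb13, Serpinb11, Serpinb7, Serpinb2, Serpinb10 and Serpinb8, in the order in which they lie along the chromosome (8 of 21939 protein-coding genes measured). All 8 were found in GENCODE M21 on GRCm38. Their chromatin was read by single-cell ATAC-seq, in which a transposase cuts accessible DNA, in sorted horizontal basal cells (HBCs), which lie on the basement membrane of the olfactory epithelium and can rebuild it after injury. All mice, controls included, were Krt5CreER; Rosa26LSL-YFP/LSL-YFP, so the sorted YFP-positive cells are those in which Cre driven by Krt5 had recombined the reporter, with their descendants. The 3 uninjured libraries were controls. The 3 injured libraries were made 24 h after methimazole, a drug that destroys much of the olfactory epithelium, was injected into the peritoneum. Mice of replicate 1 were 8 weeks old, those of replicate 2 were 6 weeks old and those of replicate 3 were 6 to 7 weeks old, in both groups. Tissue was dissociated animal by animal, and propidium iodide-negative, YFP-positive cells were sorted before nuclei were prepared. The labels do not give how many animals stand behind a library.

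Clade B serpins are the intracellular branch of the serpin family. An inhibitory serpin offers a reactive loop as bait to a protease, which cuts the loop and is then trapped and distorted. Several members are known from skin and other stratified epithelia, where they protect keratinocytes from their own proteases and from those of inflammation. Serpinb2, plasminogen activator inhibitor type 2, inhibits urokinase and is induced by stress and inflammation. Serpinb5, or maspin, is an epithelial family member that does not inhibit proteases by the serpin mechanism. Serpinb8 inhibits furin-like proteases, Serpinb13 (headpin) inhibits lysosomal cathepsins, and Serpinb10 is also called bomapin.

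Barcodes with at least 2000 fragments were taken as cells. They numbered 454, 889 and 629 in uninjured libraries 1 to 3 and 1338, 420 and 746 in injured libraries 1 to 3. Between 14825320 and 44875242 cut sites, the 2 ends of each fragment, were counted per library. Libraries differed in the cells they held, and a sum over all cells mixes the share of a cell type with its openness. HBC-like cells, named from a list of 10 markers that includes Krt5 and Krt14, made up 71.6%, 64.9% and 25.6% of barcodes in uninjured libraries 1 to 3 and 75.8%, 60.2% and 22.5% in injured libraries 1 to 3. Each cluster took the name of its best-scoring list, except clusters 5 and 9, which stayed unnamed, and that naming sets these shares. The airway-like clusters 2 and 7 also had all 10 HBC markers above the mean of clusters, by a mean log2 of 0.77 and 0.76, against 0.72 and 0.66 in the HBC-like clusters 3 and 4. In clusters 3 and 4 the list of stratified or squamous epithelium came second, at 0.49 (8 of 10 markers above) and 0.55 (7 of 10), with Krt16 and Krt6a among their leading genes. Scored over the mean of all cells in place of the mean of clusters, HBC markers led in clusters 1 and 10 (0.28 and 0.38) but not in clusters 3 and 4. In cluster 3 they stood at 0.11, after the stratified list at 0.14. In cluster 4 they stood at 0.050, after the endothelial (0.29), stratified (0.21), fibroblast and mesenchymal (0.21), Bowman's gland (0.19) and immune (0.11) lists. The name HBC-like for injured cells thus rests on the first scoring, which was chosen after the data had been seen. Low shares in replicate 3 therefore do not show that HBC markers were absent from its other cells. Cluster 7, an airway-like cluster of 170 cells, drew 156 of them from uninjured replicate 3. Uninjured replicate 3 and injured replicate 3 shared 34 barcodes with mostly identical fragments. Leaving out all 41 such copied barcodes of the 6 libraries changed no call at a serpin promoter. Immune markers summed to between 84.1 and 107.6 CPM in uninjured and to between 89.9 and 92.7 in injured libraries. Of the 10 immune markers, 9 had a higher mean after injury and none was at 0. Summed levels of 4 other lists were lower in every injured library: the HBC markers (655 to 776 CPM before, 567 to 652 after), the sustentacular (142 to 171, then 112 to 118), the Bowman's gland (85.7 to 100.2, then 69.5 to 82.8) and the ensheathing glia markers (40.7 to 44.3, then 30.7 to 38.7). Single markers did not all fall: 3 of 10, 1 of 8, 3 of 5 and 2 of 5, in that order of lists, were higher after injury. None of the markers of these 4 lists was at 0, and the part of the lists in the serpin results was not tested.

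Over all cells, the serpin promoters were ordered by openness rather than by a shared response to injury. Serpinb5 and Serpinb8 had the highest values, Serpinb10 was intermediate, and Serpinb12 lay near 0. Values are cut sites within 1 kb of the 5′-most start as counts per 1e6 cut sites (CPM) after TMM scaling. No serpin promoter passed the test over all cells: 0 of 7 members tested were called by edgeR at an adjusted p under 0.05, against 3.92% of 17164 promoters, or 2.21% called higher. At an unadjusted p under 0.05 there were 3 of the 7, against 21.8% of promoters, and DESeq2 called 1 member, Serpinb2. The median log2 change of the 7 members was 0.39, beside 0.0028 for all promoters. Groups did not overlap at 1 member, Serpinb8, against 27.3% of promoters.

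Serpinb5 had 14.9, 11.8 and 23.2 CPM in uninjured libraries 1 to 3 and 29.1, 26.01 and 21.6 CPM in injured libraries 1 to 3. Uninjured replicate 3 lay above injured replicate 3, so the groups overlapped. The means were 16.6 ± 5.87 and 25.5 ± 3.78 CPM (SD, n = 3 each), and edgeR gave a log2 change of 0.61 (SE 0.24) with an adjusted p of 0.20. Serpinb8, the furin inhibitor, had 15.2, 16.2 and 17.1 CPM before and 23.9, 21.9 and 18.04 CPM after injury. Every injured library lay above every uninjured one, by a log2 change of 0.39 (SE 0.12, adjusted p = 0.072 by edgeR). With the replicate number as a block its log2 change was 0.38 and the edgeR adjusted p was 0.041.

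Serpinb2 had 0.6004, 0.680 and 1.56 CPM in uninjured and 4.15, 2.97 and 1.52 CPM in injured libraries. Both libraries of replicate 3 lay close together, while replicates 1 and 2 were several times higher after injury. The log2 change was 1.56 (SE 0.45), with an edgeR adjusted p of 0.069. Without injured replicate 3 it was 1.87 with an edgeR adjusted p of 0.011, and without uninjured replicate 3 it was 2.14 with one of 0.022. Serpinb10 had 2.40, 3.15 and 5.63 CPM before and 13.01, 9.99 and 2.53 CPM after injury. Injured replicate 3 was again the low one, and the log2 change of 1.16 (SE 0.61) had an edgeR adjusted p of 0.32, or 0.0034 at a log2 change of 1.60 without that library.

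Serpinb13 had 2.46, 1.08 and 4.41 CPM in uninjured and 1.04, 1.17 and 2.73 CPM in injured libraries, with replicate 3 highest in both groups (log2 change −0.68, edgeR adjusted p = 0.47). Serpinb11 had between 0.510 and 0.853 CPM before and between 0.709 and 0.921 CPM after injury. Serpinb7 had between 0.720 and 1.22 CPM before and between 0.633 and 1.12 CPM after. The log2 changes, 0.25 (SE 0.48) for Serpinb11 and −0.16 (SE 0.46) for Serpinb7, were smaller than their SE. Serpinb12, with 4, 0 and 13 cut sites before and 8, 9 and 6 after injury, did not pass the filter on low counts and was not tested. Several members have more than 1 annotated start, and of these starts taken one by one 0 were called, against 5.73% of 40171. The directions of Serpinb8 and Serpinb11 depended on scaling. With factors from 10 kb bins, which moved the median promoter to a log2 change of −0.54, Serpinb8 stood at −0.16 and Serpinb11 at −0.28, which is 0.38 and 0.26 above that median.

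**Figure D1:**
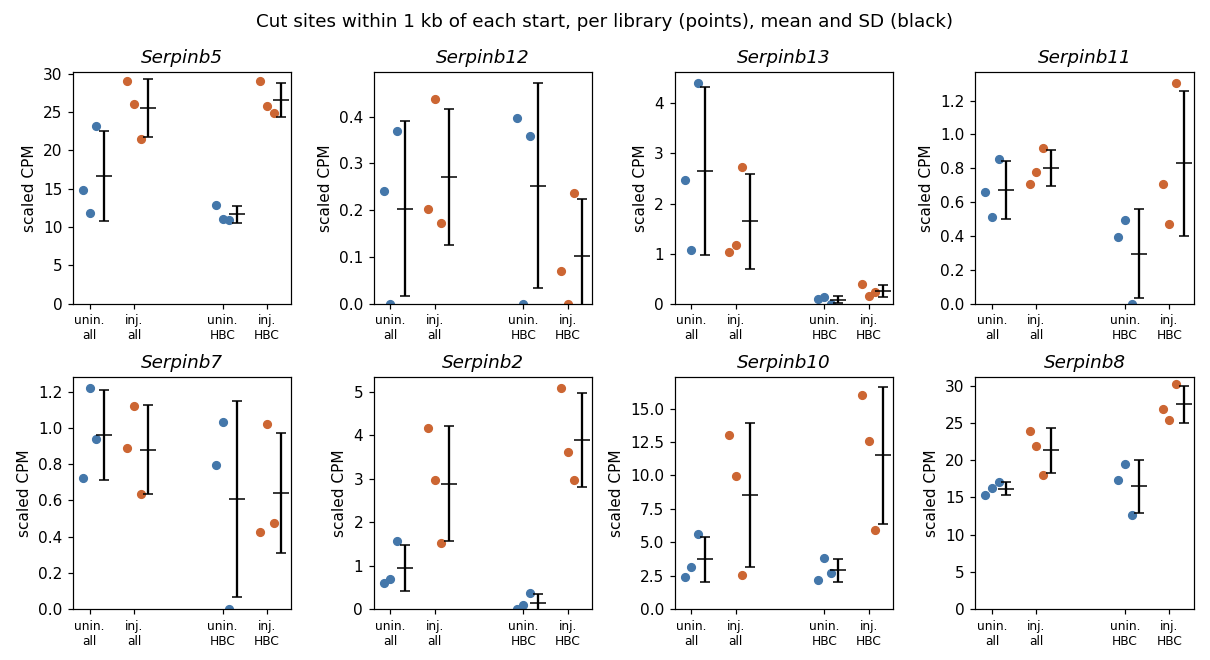
Cut sites within 1 kb of each start in TMM-scaled CPM (vertical axis) for the 8 serpins, in all cells and in HBC-like cells, before (blue) and after (orange) injury; points are libraries, black marks the mean and SD (n = 3). Over all cells only Serpinb8 has groups that do not overlap. In HBC-like cells Serpinb5 lies between 10.96 and 12.9 CPM before and between 24.9 and 29.1 CPM after injury.

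The promoters showed where in the epithelium each gene was open. Serpinb5, pooled over libraries, was highest in the airway-like clusters 2 and 7, at 42.2 and 40.2 CPM. It stood at 28.2 and 23.0 CPM in the HBC-like clusters 3 and 4, which held mainly injured cells, and at 15.4 and 9.13 CPM in the HBC-like clusters 1 and 10, which held mainly uninjured cells. In the neuron-like cluster 8 its level was 0.607 CPM. Over the libraries with at least 20 cells of a cluster, Serpinb5 ran from 39.8 to 48.9 CPM in cluster 2, from 22.6 to 30.7 in cluster 3, from 21.6 to 23.8 in cluster 4 and from 14.1 to 17.1 in cluster 1. The ranges of clusters 3 and 4 overlapped, and those of clusters 2, 3 and 1 did not. Serpinb8 varied least among the epithelial clusters, from 15.6 CPM in cluster 11 to 26.9 in cluster 7, and was 10.7 CPM in the sustentacular-like cluster 6.

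Serpinb13 was nearly limited to the airway-like clusters, with 7.50 CPM in cluster 2, 6.09 in cluster 7 and 2.99 in cluster 11, and no more than 0.673 CPM in any other cluster. Serpinb10 was highest in cluster 7 at 14.1 CPM, followed by clusters 4 and 3 at 12.5 and 10.98 CPM, and stood at 4.75 CPM in cluster 2 and 3.81 CPM in cluster 1. Its range over libraries in cluster 3 was 1.33 to 12.4 CPM, so these neighbours did not differ beyond their spread. Serpinb2 had an order of its own. It was highest in the unnamed cluster 5, whose leading genes include Rtp1 and Slc17a6, at 5.07 CPM. Clusters 4 and 3 followed at 3.99 and 3.70 CPM and cluster 8 at 2.43 CPM, against 0.190 CPM in cluster 1. By its markers cluster 5 was neuronal: 8 of 8 of the immature neuron and precursor list stood above (log2 excess 1.95), and 8 of 8 of the mature neuron list (1.62). Over libraries Serpinb2 ran from 2.96 to 7.97 CPM in cluster 5 and from 3.14 to 4.65 in cluster 4, so the first places did not differ beyond their spread. At a clustering resolution of 1 the highest was another cluster, of 630 cells, at 5.70 CPM. Serpinb7 led in the sustentacular-like cluster 6 at 3.33 CPM, and Serpinb11 in cluster 11 at 2.78 CPM, on 24 and 13 cut sites. Clusters were made from the same cut sites, so these levels are a description.

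**Figure D2:**
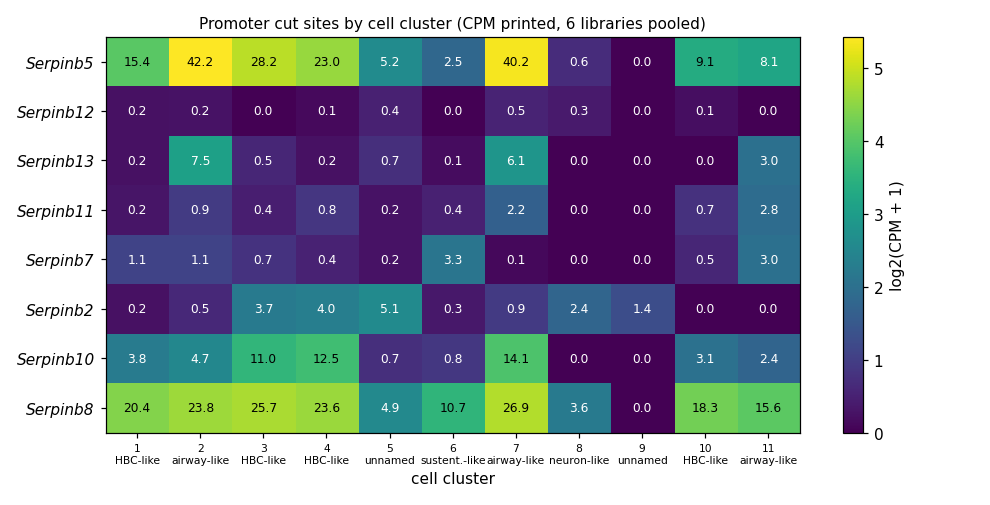
Promoter cut sites of the 8 serpins (rows) in 11 cell clusters (columns), pooled over 6 libraries; colour is log2(CPM + 1) and the printed number is CPM. Serpinb5 and Serpinb8 are open in the HBC-like and airway-like clusters, with Serpinb5 at 2.50 CPM in the sustentacular-like cluster 6, Serpinb13 in the airway-like clusters 2 and 7, and Serpinb2 in clusters 3, 4 and 5.

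Genes with the most similar pattern were ranked by Pearson's r of log2(CPM + 1) over the 11 clusters, which share libraries and depth. Serpinb5 was followed most closely by Gjb5, an epithelial connexin gene (r = 0.98), Nt5e (0.96) and Grm2 (0.96). Serpinb10 was followed by Baalc (0.96), Gjb5 (0.96) and Cyp3a13 (0.95). Between members, Serpinb5 correlated with Serpinb10 (r = 0.93) and Serpinb8 (0.90), and Serpinb2 did so with neither Serpinb5 (r = −0.05) nor Serpinb10 (0.04).

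Within HBC-like cells, Serpinb2, Serpinb10, Serpinb5 and Serpinb8 opened at 24 h. In these cells 4 of 5 members tested were called higher by edgeR, against 11.8% of 14901 promoters called higher, 9.06% called lower and 20.9% called in either direction. Among the 4, Serpinb2 passed the filter on low counts only through the injured libraries, with 0, 2 and 2 cut sites in the uninjured ones. Serpinb11, Serpinb12 and Serpinb13 did not pass it. The 4 of 5 is thus set in part by that filter. The median log2 change of all promoters was −0.0091. The call compares different clusters: the HBC-like class was held by clusters 1 and 10 in uninjured libraries (98.8% to 99.8% of its cells) and by clusters 3 and 4 in injured libraries (92.9% to 98.6%), whose naming depends on the scoring as given above. The share of cut sites in open regions, as a median over HBC-like cells, was between 83.3% and 84.4% before and between 77.8% and 80.1% after injury, and its part in the results was not tested. Scaling by total cut sites alone moved the median promoter to −0.32 and left the same 4 members called, at log2 changes of 4.81, 1.65, 0.89 and 0.38 in the order given. The 4 calls also held without each library in turn, with the replicate block, by DESeq2 and without the copied barcodes.

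Serpinb2 went from near closure to a low but regular opening. It had 0, 2 and 2 cut sites in HBC-like cells of uninjured libraries 1 to 3 and 143, 46 and 25 in those of injured libraries 1 to 3, or 0, 0.0895 and 0.359 CPM against 5.08, 3.62 and 2.97 CPM. The lowest injured library was above the highest uninjured one by a wide margin. Pooled, 214 cut sites against 4 gave a ratio of 41.2 (95% interval 15.9 to 153, binomial, counting error only), and edgeR gave a log2 change of 5.10 (SE 0.66, adjusted p = 7.19e-09). This interval and those below take cut sites as independent. The 2 ends of a fragment can fall in the same window, so the intervals can be too narrow. Of all 89 cut sites at the Serpinb2 promoter in uninjured cells these 4 made up 4.49%, while after injury HBC-like cells held 214 of 278 (77.0%). The RefSeq promoter (GRCm38.p6), from 250 bases before to 50 after the start, is given to show the place of its AP-1 sequence TGANTCA, in capitals:

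Serpinb2 promoter, chr1:107511173-107511472, plus strand: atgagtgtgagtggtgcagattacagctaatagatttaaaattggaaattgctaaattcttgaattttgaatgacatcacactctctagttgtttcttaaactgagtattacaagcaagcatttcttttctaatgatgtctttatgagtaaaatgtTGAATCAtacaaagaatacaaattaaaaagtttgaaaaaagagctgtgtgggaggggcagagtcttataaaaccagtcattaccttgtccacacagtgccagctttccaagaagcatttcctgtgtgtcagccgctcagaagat

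Serpinb10 starts inside the annotated span of Serpinb2, on the same strand. It had 2.18, 3.85 and 2.69 CPM in uninjured and 16.01, 12.6 and 5.93 CPM in injured HBC-like cells. Injured replicate 3 was the lowest of its group and still above all uninjured libraries. The means were 2.91 ± 0.854 and 11.5 ± 5.13 CPM (SD, n = 3 each), a log2 change of 1.95 (SE 0.27, adjusted p = 7.09e-08 by edgeR). Its promoter holds 1 AP-1 sequence, in capitals:

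Serpinb10 promoter, chr1:107528753-107529052, plus strand: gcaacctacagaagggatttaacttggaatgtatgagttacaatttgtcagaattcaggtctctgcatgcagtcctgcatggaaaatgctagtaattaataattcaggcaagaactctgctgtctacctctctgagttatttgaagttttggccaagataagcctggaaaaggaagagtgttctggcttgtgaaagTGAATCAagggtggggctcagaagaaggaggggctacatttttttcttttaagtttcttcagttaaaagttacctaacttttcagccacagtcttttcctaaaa

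Serpinb5 had 12.9, 11.1 and 10.96 CPM in uninjured and 29.1, 25.8 and 24.9 CPM in injured HBC-like cells. The libraries of each group lay close together and the groups were far apart: 11.7 ± 1.08 against 26.6 ± 2.20 CPM (SD, n = 3 each). The log2 change was 1.199 (SE 0.14, edgeR adjusted p = 5.10e-10). Its promoter, already open before injury, holds 1 AP-1 sequence as well, in capitals:

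Serpinb5 promoter, chr1:106860925-106861224, plus strand: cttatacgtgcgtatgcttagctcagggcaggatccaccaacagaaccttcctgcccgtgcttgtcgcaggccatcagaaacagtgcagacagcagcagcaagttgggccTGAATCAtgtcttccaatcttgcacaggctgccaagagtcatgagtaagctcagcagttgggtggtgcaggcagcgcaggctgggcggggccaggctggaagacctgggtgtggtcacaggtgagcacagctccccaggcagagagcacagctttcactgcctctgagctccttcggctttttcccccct

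Serpinb8 had 17.4, 19.4 and 12.6 CPM before and 26.8, 25.3 and 30.2 CPM after injury in HBC-like cells. Its mean was 16.5 ± 3.52 CPM before and 27.5 ± 2.53 CPM after injury (SD, n = 3 each), the latter within the spread of that of Serpinb5. Of the 4 called changes it was the smallest, a log2 of 0.68 (SE 0.14, adjusted p = 9.79e-05 by edgeR). Serpinb7 stayed at a low level, with 0.794, 1.03 and 0 CPM before and 0.426, 1.02 and 0.474 CPM after injury (log2 change −0.23, edgeR adjusted p = 0.85). Serpinb11, Serpinb12 and Serpinb13 did not pass the filter in HBC-like cells. They held 15, 6 and 4 cut sites in uninjured and 37, 4 and 15 in injured cells.

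Cluster 2, with 63 to 275 cells in every library, was named airway-like by a log2 excess of 0.95 for that list (5 of 7 markers above), with the HBC list second at 0.77 (10 of 10), so it is set beside the HBC-like cells as a cluster and not as a separate lineage. In it no member was called: 0 of 4 tested passed in edgeR, against 0.0514% of 13628 promoters, and 1 of the 4, Serpinb13, had an unadjusted p under 0.05, as did 7.71% of those promoters. Serpinb5 had 39.4, 46.5 and 37.3 CPM before and 48.6, 46.4 and 43.7 CPM after injury (log2 change 0.18, edgeR adjusted p = 0.86). Serpinb13 had 12.9, 11.4 and 10.4 CPM before and 4.32, 3.97 and 6.57 CPM after, groups that did not overlap (log2 change −1.16, SE 0.34, edgeR adjusted p = 0.25). Groups did not overlap at Serpinb7 either, which was below the filter in cluster 2. The share of all promoters with such groups in cluster 2 was not counted. The log2 change was 0.28 for Serpinb10 and −0.014 for Serpinb8, neither beyond its SE.

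The difference of the injury effect between HBC-like cells and cluster 2 was tested in 1 edgeR fit with the library as a block, chosen after the data had been seen. Both sides of it were formed from the same cut sites, but unlike each other. Cluster 2 is 1 cluster, which gathers cells with alike profiles from both groups, while the HBC-like class joins clusters that divide by group. A small change within cluster 2 was therefore favoured by the clustering, and the test cannot separate that from the response of the cells. The difference was called for 4 of 6 members tested, against 3.05% of 14919 promoters. Among the 6, Serpinb2 passed the filter on low counts only through injured HBC-like cells, where it was high, and Serpinb13 only through cluster 2. The 4 of 6 is thus set in part by that filter. The effect in HBC-like cells was larger by a log2 of 1.03 for Serpinb5 (SE 0.20, adjusted p = 0.000129), 5.04 for Serpinb2 (SE 1.53, adjusted p = 0.044), 1.71 for Serpinb10 (SE 0.48, adjusted p = 0.023) and 0.78 for Serpinb8 (SE 0.22, adjusted p = 0.030). For Serpinb13 it was 2.67 (SE 1.09, adjusted p = 0.21) and for Serpinb7 1.36 (SE 1.34, adjusted p = 0.74).

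**Figure D3:**
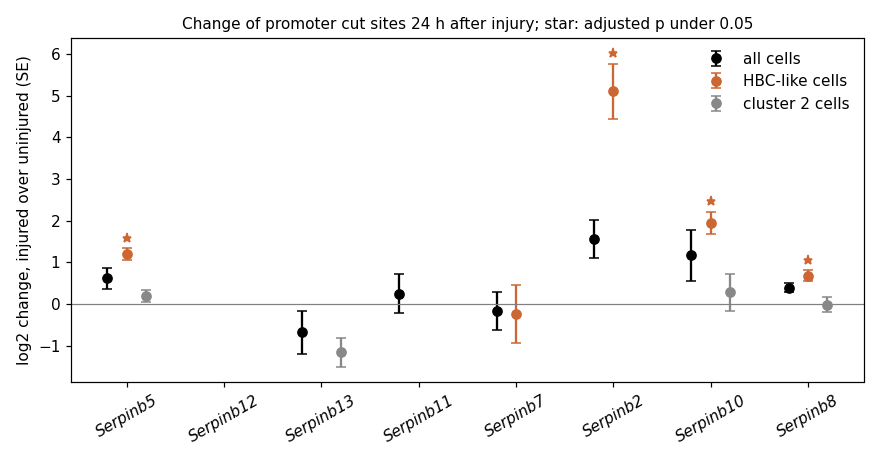
Log2 change of promoter cut sites after injury with its SE (vertical axis) for each serpin tested, in all cells, HBC-like cells and cluster 2; stars mark an edgeR adjusted p under 0.05. Stars stand only over Serpinb5, Serpinb2, Serpinb10 and Serpinb8 in HBC-like cells.

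The chromatin between the genes was read in 500 bp tiles from 25 kb before the first Serpinb gene to 25 kb after the last (chr1:106836173-107635484, 799.312 kb). Of its tiles 138 were open, that is, their mean CPM over all 6 libraries was 5 or more times the median over tiles. A tile could thus pass through 1 group alone. Over all cells 6 were called higher and 1 lower by edgeR (5.07%), against 4.83% of 514026 open tiles (3.66% higher), so the cluster as a whole was near the background. Of the higher tiles, 4 were among the 27 nearest to Serpinb5, 1 among the 11 nearest to Serpinb10 and 1 among the 20 nearest to Serpinb8. The lower tile lay in a Serpinb7 intron. Open tiles were unevenly placed: the 277 kb of the Serpinb3 genes held 6, against 41 around Serpinb5, Serpinb12 and Serpinb13, 41 around Serpinb11 and Serpinb7, and 50 from Serpinb2 to Serpinb8.

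The region with the largest rise over all cells was intergenic, 21 kb upstream of Serpinb5 (chr1:106839001-106840500). In its tile 21.4 kb upstream there were 0.193, 0.691 and 0.700 CPM in uninjured and 12.5, 7.77 and 3.05 CPM in injured libraries. Each injured library was above each uninjured one, with a log2 change of 3.77 (SE 0.51, adjusted p = 0.00286 by edgeR). The adjoining tile changed by a log2 of 4.89 (SE 0.67, adjusted p = 0.00287 by edgeR), and both were called without each library in turn. The 300 bases with the most cut sites held 49.3% of the region's and carry 2 AP-1 sequences, in capitals:

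Region 21 kb upstream of Serpinb5, chr1:106839650-106839949, plus strand: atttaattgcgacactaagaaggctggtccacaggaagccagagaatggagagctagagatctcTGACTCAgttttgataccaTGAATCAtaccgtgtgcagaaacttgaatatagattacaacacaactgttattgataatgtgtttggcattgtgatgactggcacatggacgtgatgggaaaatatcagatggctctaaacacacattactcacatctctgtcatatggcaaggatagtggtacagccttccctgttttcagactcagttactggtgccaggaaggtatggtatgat

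Nearer to the gene, the intergenic region 3.4 kb upstream of the Serpinb5 start had 0.901, 0.871 and 2.01 CPM before and 5.41, 6.35 and 3.39 CPM after injury in its more open tile (log2 change 1.97, SE 0.37, edgeR adjusted p = 0.012).

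A tile in a Serpinb10 intron, 8.7 kb from its start, had 0, 1 and 3 cut sites before and 28, 12 and 12 after injury (log2 change 3.34, SE 0.81, edgeR adjusted p = 0.035). It passed as open only through the injured libraries, so a rise there was favoured by that choice of tiles. The 300 bases with most cut sites of its region hold 1 AP-1 sequence, in capitals, which lies in the adjoining tile, not called over all cells:

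Region 9 kb downstream of the Serpinb10 start, chr1:107537234-107537533, plus strand: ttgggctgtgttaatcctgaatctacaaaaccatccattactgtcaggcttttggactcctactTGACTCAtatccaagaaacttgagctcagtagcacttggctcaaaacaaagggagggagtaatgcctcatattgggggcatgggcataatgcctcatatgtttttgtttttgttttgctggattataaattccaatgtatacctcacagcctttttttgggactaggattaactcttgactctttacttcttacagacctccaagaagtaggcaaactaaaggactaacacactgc

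A tile over the last exon of Serpinb8, in its UTR 19.7 kb from the start, had 0.193, 0.451 and 0.365 CPM before and 2.57, 2.85 and 0.590 CPM after injury (log2 change 2.48, edgeR adjusted p = 0.033). The Serpinb7 intron tile, 1.6 kb from the 5′-most start, fell from 2.00, 1.65 and 1.43 CPM to 0.642, 0.460 and 0.487 CPM (log2 change −1.65, SE 0.40, edgeR adjusted p = 0.034). Its region was most open in the sustentacular-like cluster 6, at 8.19 CPM against 2.81 CPM in cluster 1, and that cluster made up 3.74%, 12.3% and 6.84% of barcodes before and 0.299%, 1.19% and 2.01% after injury. Within HBC-like cells alone the tile was lower as well, by a log2 change of −1.54, a call lost in 2 of the 6 fits without 1 library. The part of cluster 6 in the fall was not tested. Apart from the 2 tiles 21 kb upstream of Serpinb5, each of these calls over all cells was lost without at least 1 of the 6 libraries. The number of higher tiles in the cluster was 2 without uninjured replicate 1, uninjured replicate 2 or injured replicate 2, 3 without injured replicate 1, 9 without uninjured replicate 3 and 19 without injured replicate 3. The lower call held only without either library of replicate 3.

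In HBC-like cells 38 of the 138 tiles were called higher and 4 lower (30.4%), against 16.8% of 512452 open tiles, 11.7% higher and 5.04% lower. The median log2 change was 0.74 in the cluster and 0.16 over all open tiles. Tiles that passed as open through 1 group alone can be among both sets. Around Serpinb2 10 of 19 tiles were called higher, around Serpinb10 6 of 11 and around Serpinb5 12 of 27. Serpinb11 had 3 of 22 and Serpinb8 3 of 20, Serpinb12 had 1 of 6 and Serpinb13 0 of 11. Around Serpinb7 3 of 22 were higher and 4 lower, which are all the lower tiles of the cluster. Merging adjoining tiles gave 64 regions, of which 21 were higher and 2 lower (35.9%), against 21.7% of 198465 regions. Without injured replicate 1, the deepest library, 21 tiles were called higher and 2 lower, and 2 lower without uninjured replicate 1.

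**Figure D4:**
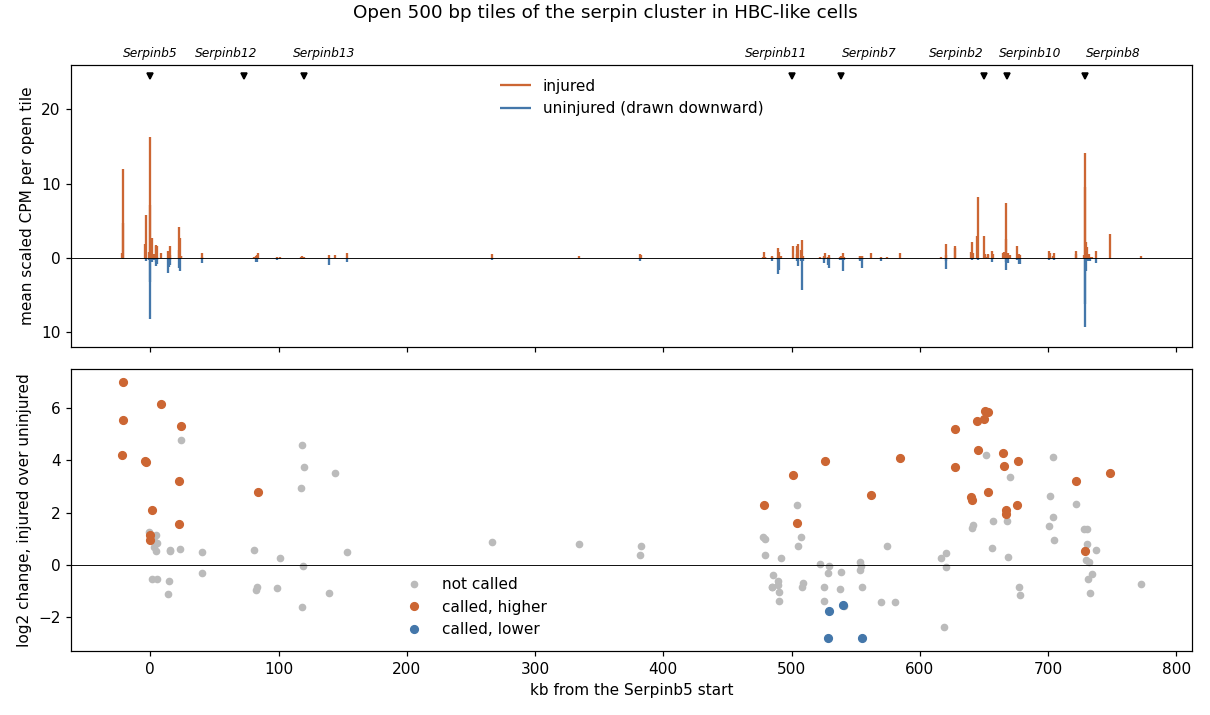
Upper plot, mean TMM-scaled CPM per open 500 bp tile in HBC-like cells after injury (upward) and before it (downward); lower plot, log2 change per tile, both against distance in kb from the Serpinb5 start, with triangles at member starts. Of the 38 called rises, 12 are nearest to Serpinb5, 10 to Serpinb2 and 6 to Serpinb10, with the others scattered, and the 4 called falls are nearest to Serpinb7.

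The region 21 kb upstream of Serpinb5 held 2, 9 and 0 cut sites in uninjured and 620, 230 and 119 in injured HBC-like cells. That is 969 against 11, a ratio of 61.2 (95% interval 34.1 to 123, counting error only), with a log2 change of 5.83 (SE 0.37, adjusted p = 9.08e-52 by edgeR). In this fit p rested almost wholly on a spread shared over regions, not on that of the region itself. Its injured levels of 21.4, 18.05 and 12.4 CPM were of the order of those of the Serpinb5 promoter itself, which was open before injury. The region 3.4 kb upstream held 1, 10 and 6 cut sites before and 225, 131 and 48 after injury (log2 change 3.97, SE 0.43, edgeR adjusted p = 4.19e-18). Within the first part of the gene, 8.1 kb from the start, a region had no cut site in any uninjured library and 16, 7 and 7 in injured ones. With a floor of 3 cut sites taken for the uninjured group the ratio was 6.95. The binomial 95% lower limit of the ratio, without that floor and with cut sites taken as independent, was 5.31. Around the 3′ end, 22 to 24 kb from the start, levels went from 2.52, 3.88 and 3.29 CPM to 12.2, 7.53 and 5.43 CPM (log2 change 1.38, SE 0.30).

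Around Serpinb2 the most open region after injury was not the start but 5.4 kb upstream (chr1:107505501-107506500, intergenic), with 4, 12 and 0 cut sites before and 378, 153 and 80 after injury. The ratio was 26.5 (95% interval 16.2 to 46.7) and the log2 change 4.68 (SE 0.40, edgeR adjusted p = 2.70e-29). The region at the start itself had 0, 2 and 0 cut sites before and 132, 43 and 23 after (ratio 68.8, 95% interval 18.8 to 572). A further region 22.9 kb upstream had 1, 4 and 0 before and 77, 51 and 21 after (log2 change 4.37, SE 0.68). At Serpinb10, the intron region named above had 2, 12 and 0 cut sites before and 91, 29 and 10 after injury (log2 change 2.63, SE 0.62). At Serpinb8, the UTR region had 2, 8 and 0 before and 92, 56 and 19 after (log2 change 3.57, SE 0.59), and one 7.0 kb upstream had 0, 6 and 2 before and 71, 21 and 6 after (log2 change 2.87, SE 0.74).

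Both regions that fell in HBC-like cells were beside Serpinb7, a serpin of skin and kidney also called megsin. The intergenic one, 9.7 kb upstream (chr1:107389001-107391000), went from 3.15, 3.15 and 1.46 CPM to 0.968, 0.392 and 1.04 CPM (log2 change −1.72, SE 0.50, edgeR adjusted p = 0.0046). The intronic one (chr1:107401001-107402000) went from 2.84, 1.70 and 1.83 CPM to 0.657, 0.863 and 0.627 CPM (log2 change −1.56, SE 0.56, edgeR adjusted p = 0.029). Groups did not overlap at either, but the share of all regions with such groups in these cells was not counted. At the second Serpinb7 start, 23 kb further on, a region rose from 0, 4 and 0 to 18, 11 and 6 cut sites (log2 change 2.72, SE 1.06, edgeR adjusted p = 0.048).

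**Figure D5:**
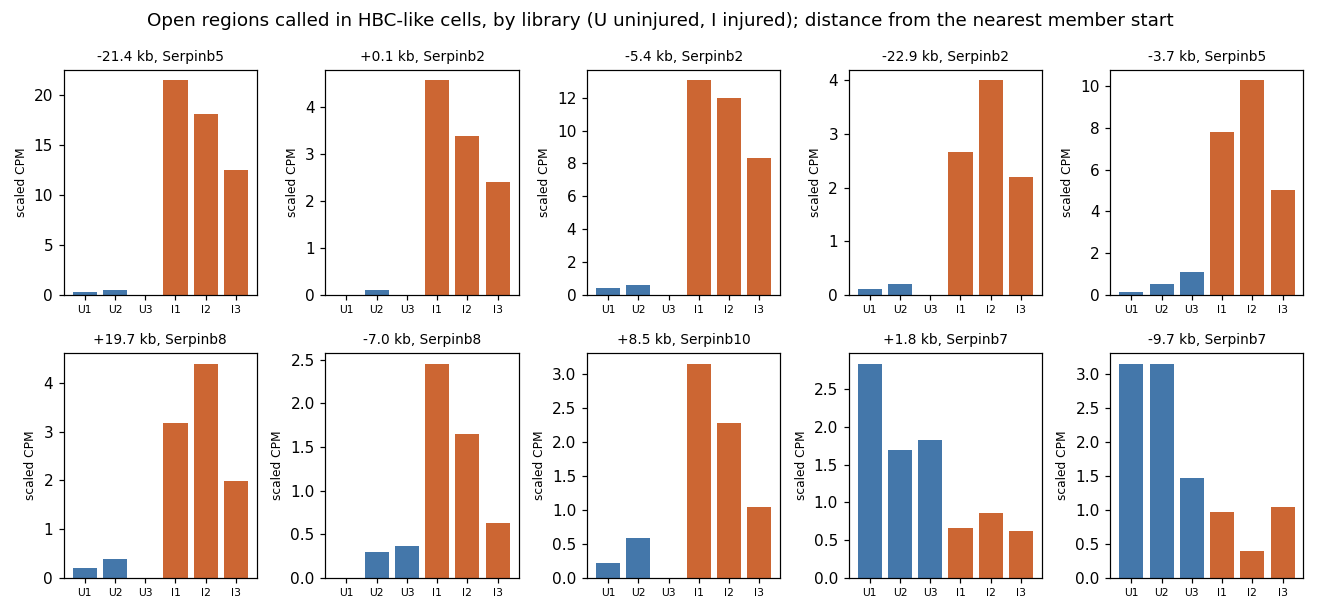
TMM-scaled CPM in HBC-like cells per library (bars; U uninjured, I injured replicates 1 to 3) for 10 open regions called by edgeR, namely the 8 with the largest rises among those with at least 100 cut sites in all, and both that fell, titled by distance from the nearest member start. The 8 rising regions have uninjured bars near 0, and the 2 near Serpinb7 are higher before injury.

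The limit set by the clustering holds for tiles as well. In the fit of HBC-like cells against cluster 2 the difference was called at 6 of the cluster's tiles, against 1.76% of 513389 open tiles. They were the 2 tiles 21 kb upstream and the 2 tiles 3.4 to 3.9 kb upstream of Serpinb5, the tile at the Serpinb2 start and the tile at the Serpinb10 start. In cluster 2 alone the tile 21.4 kb upstream of Serpinb5 had a log2 change of 1.30 (SE 0.54, adjusted p = 0.65 by edgeR).

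Summed over the whole 799.312 kb, cut sites in CPM without TMM scaling were 176, 171 and 252 in uninjured and 287, 272 and 214 in injured libraries. Uninjured replicate 3 exceeded injured replicate 3, and the means of 199.6 ± 45.2 and 257.6 ± 38.4 (SD, n = 3 each) did not differ beyond their spread (log2 ratio 0.37, exact two-sided permutation p = 0.2, smallest possible 0.1). In HBC-like cells alone the values were 139, 144 and 123 before and 262, 245 and 217 after injury (log2 ratio 0.84, exact permutation p = 0.1, the smallest that 3 against 3 can give). By stretch over all cells, the log2 ratio was 0.60 from Serpinb5 to Serpinb13, −0.36 over Serpinb11 and Serpinb7, and 0.63 from Serpinb2 to Serpinb8 (exact permutation p = 0.2 for each). Over the Serpinb3 genes, with 6 open tiles, it was 0.51 (exact permutation p = 0.3).

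Counted by cell, few cells show a cut at any one promoter. With each cell thinned to 2000 fragments, 7.27%, 8.89% and 11.1% of cells in uninjured and 13.4%, 10.7% and 11.3% in injured replicates had a cut site at any of the 8 promoters (exact permutation p = 0.2). Among HBC-like cells the shares were 5.85%, 9.19% and 3.11% before and 13.8%, 10.7% and 15.5% after injury (exact permutation p = 0.1). In the neuron-like cluster 8, taken as a cell type outside the basal and airway epithelium, 2 of 160 cells had one (1.25%), against 490 of all 4476 (10.9%). Without thinning the mean share over all cells was 42.7% before and 53.2% after injury.

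The AP-1 sequence TGANTCA, searched on both strands, was found in 39 of the 138 open tiles of the cluster (28.3%), beside 19.8% of all 514026 open tiles. Among the 38 tiles higher in HBC-like cells 19 held it (50%), beside 48.2% of all tiles higher in those cells, and among the 4 lower tiles 0 did, beside 10.1%. Of the 300-base RefSeq promoters, 7 of the 8 members had an entry, Serpinb13 having none, and each of the 7 had at least 1 promoter with the sequence, in 8 of 9 entries, beside 7.81% of 32851 promoters. Both entries of Serpinb2 overlap, so a match they share is counted in each. Serpinb8 and Serpinb11 each held 2. The TEAD sequence GGAATG was in 2 of the 9 entries (14.7% of all promoters) and the RUNX sequence TGTGGT in 2 (16.8%). Consensus sequences of NF-kB, CTCF and p63 were in none, beside 1.63%, 0.0791% and 32.5% of all promoters. The regions printed above were chosen for display, and their matches are no count over the cluster. These are matches of letters and say nothing of binding.

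Relatives and partners of these genes were taken from fixed lists. Of the 4 Serpinb3 genes on chromosome 1, 1 passed the filter and 0 were called over all cells, and of the 15 clade B serpins of chromosome 13, 9 passed and 0 were called (median log2 change 0.083). Of a list of 19 genes, the proteases that clade B serpins meet and the receptor Plaur, 16 passed, 2 were called higher and 0 lower, against 2.21% of all promoters called higher and 1.71% lower (3.92% in all). Plaur, the urokinase receptor, had 7.74, 8.50 and 12.2 CPM before and 37.9, 33.1 and 23.7 CPM after injury (log2 change 1.71, SE 0.21, edgeR adjusted p = 0.0059). Plau, urokinase itself and the target of Serpinb2, changed by a log2 of 0.65 (edgeR adjusted p = 0.037). Of the neighbouring genes Kdsr, Vps4b and Bcl2, 0 of 3 were called by edgeR. At an unadjusted p under 0.05 there were 0 of the Serpinb3 genes and 2 of the 9 chromosome 13 serpins tested. There were also 3 of the 16 genes of the protease list and 1 of the 3 neighbours, against 21.8% of all promoters.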

How the data were processed

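The authors deposited, for each of 6 single-cell ATAC-seq libraries, a list of fragments with a count of read pairs per fragment, as the layout and values of the files show. Per the submitters' processing notes, Cell Ranger 2.0.0 and mm10 were used, while the headers of the deposited matrices, not used here, name software version 1.2.0. Duplicates are collapsed in the list, so each fragment was counted once per barcode and each of its 2 ends as a cut site. Depth limits the precision and ran between 8100227 and 23937953 fragments per library. The labels call the libraries biological replicates. Each edgeR p-value rests on a spread between libraries that is in part shared over features. For regions in HBC-like cells, and for tiles in the test of the difference, the shared spread set p almost alone. The region chr1:107526001-107527000 near Serpinb10 was called with 0, 3 and 0 cut sites before and 66, 25 and 1 after injury, in groups that overlapped. Very small p-values there do not measure the spread of the region itself.

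The members and lists were chosen with earlier results of these data known. Cut sites were summed per library over barcodes with 2000 or more fragments, since cells are not replicates, within 1 kb of the 5′-most GENCODE M21 start (GRCm38, coordinates from 1) and in 514026 open 500 bp tiles, kept at a mean CPM of at least 5 times the median tile without regard to group. Groups were compared by edgeR 4.0.16 in R 4.3.3 (quasi-likelihood, robust, TMM, filterByExpr for promoters) with Benjamini-Hochberg adjustment over all features tested and a threshold of 0.05; DESeq2 1.42.0 was an alternative. The SE printed with an edgeR log2 change is the absolute change divided by the square root of the F statistic. A change smaller than its SE thus only means an F under 1. Named were the 8 members, the called regions and at most 3 genes per list. Same-numbered libraries deviated together (correlations 0.111, 0.237 and 0.289; the labels give them the same ages; libraries of other numbers −0.303 to 0.147, the highest being uninjured 2 with injured 1), so the replicate block is printed where it changes a call.

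Cells were clustered with TF-IDF, 30 components, 15 neighbours and Leiden resolution 0.5 (scanpy 1.11.5, scikit-learn 1.9.0, igraph 0.11.9). Clusters were named by the excess of marker lists over the mean of clusters, a scoring changed after the data had been seen; over the mean of all cells, clusters 3 and 4 were not led by HBC markers. The comparison within HBC-like cells was planned only as an alternative setting of the tests over all cells. Which injured cells it holds rests on the changed scoring. Clusters 1 and 10, led by HBC markers under both scorings, held 14, 5 and 12 and 0, 0 and 0 cells of injured libraries 1 to 3. The alternatives of that comparison, cluster 2 and the test of the difference between HBC-like cells and cluster 2 were added after the data had been seen. Doublets, 720 barcodes (16.1%), were kept. So was 1 barcode of injured replicate 2 with 1746401 fragments, 14.7% of those in cells of that library. On simulated data with the spread of these libraries, edgeR over 17164 promoters recovered 76.5% of those changed by a log2 of 1 and 91% of those changed by 2. Over 514026 tiles it recovered 0% and 9.5%, and the difference between cell groups over 14919 promoters was recovered at 67% and 89%. Only 200 features were changed at each size, while 24823 tiles were called in the data. With so few changed, the adjustment asks for a smaller p, so the tile shares do not measure recovery in the real fits. Intervals and floors cover counting error only. They take cut sites as independent, although each fragment gives 2, so the intervals can be too narrow. The sequence of 1 region is not reported here.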

Additional observations from a re-analysis of the deposited data

Results flagged for a closer look

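The following were called in the test of the difference in injury effect between HBC-like cells and cluster 2 (edgeR, library as a block, adjusted p under 0.05). Clusters came from the same cut sites, and only the HBC-like class joins clusters that divide by group. The clustering itself therefore favours such differences. At promoters the log2 change in HBC-like cells exceeded that in cluster 2 by 1.03 at Serpinb5, 5.04 at Serpinb2, 1.71 at Serpinb10 and 0.78 at Serpinb8. At open tiles it did so by 4.97 and 6.26 at 21.4 and 20.9 kb upstream of the Serpinb5 start, and by 3.88 and 3.25 at 3.9 and 3.4 kb upstream of it. The tile 0.2 kb upstream of the Serpinb2 start differed by 6.07 and that 0.3 kb upstream of the Serpinb10 start by 1.99. In cluster 2 the Serpinb2 promoter held 0, 4 and 4 cut sites in uninjured and 1, 6 and 4 in injured libraries, so its difference rests on few counts there. That promoter passed the filter on low counts only through injured HBC-like cells.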

How the results depend on the processing

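As reported, 379 promoters were called higher and 294 lower, and 18799 tiles higher and 6024 lower. These counts depended on scaling: of the calls at promoters 56.3% were higher with TMM, 2.69% with factors from 10 kb bins and 5.94% by total cut sites, and of those at tiles 75.7%, 42.7% and 67.1%. In HBC-like cells the share at promoters was 56.6%, or 11.8% by total cut sites, and at tiles 69.9%, or 58.3%. With factors from 10 kb bins 9830 were lower and 1 member was called higher (Serpinb2) and 1 lower (Serpinb13, log2 change −1.18). By total cut sites 6600 were lower, with 1 member higher. DESeq2 gave 624 higher and 553 lower with 1 member, and the replicate block 778 higher and 1015 lower with 1 member. The lower count was 191 with at least 20% of cut sites in open regions, 175 without doublets and 179 in a window of 500 bp either side, where 1 member was called; 1 member was also called with every annotated start summed. Gene bodies gave 727 higher and 566 lower. HBC-like cells gave 1758 and 1350 (4 members) and cluster 2 gave 5 and 2. Over tiles, 10 kb bins gave 12361 higher and 16557 lower, the block 9859 lower, HBC-like cells 60064 and 25824, and cluster 2 846 and 142. In the cluster, lower tiles were 2 by DESeq2 and 3 with the block; HBC-like cells gave 38 and 4, and cluster 2 gave 0 higher. By total cut sites in HBC-like cells, 920 promoters were higher and 6874 lower, and 39001 tiles lower. At resolution 1 the highest cluster for Serpinb5 was at 46.6 CPM. With the block no other member changed its call, and in HBC-like cells it kept the 4 members called.

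Signs turned only for values that were not called, or in cluster 2: Serpinb11 stood at −0.28 (10 kb bins), −0.028 (total) and −0.15 (no doublets), Serpinb8 at −0.16 (10 kb bins) and −0.014 (cluster 2), Serpinb7 at 0.046 (no doublets) and 0.23 (every start; −0.35 to 0.049 without each library, above 0 without uninjured replicate 2 or injured replicate 3), Serpinb13 at 0.38 (500 bp) and the Serpinb7 intron tile at 0.061 (cluster 2). The causes were not tested.

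Leaving out each library gave 69 to 767 promoters higher, 31 to 609 lower and 0 to 3 members higher; 4157 to 34391 tiles higher and 586 to 8523 lower; 2 to 19 cluster tiles higher and 0 to 1 lower. In HBC-like cells it gave 1280 to 1630 promoters higher, 873 to 1201 lower, and 21 to 37 cluster tiles higher and 2 to 4 lower. Members were called without uninjured replicate 3 (Serpinb5, Serpinb2) and without injured replicate 3 (Serpinb2, Serpinb10, Serpinb8). Tile counts are low, so a tile not called says little. On simulated tiles 0% of changes of a log2 of 1 were recovered, but only 200 tiles were changed at that size. That share does not measure recovery in the real fits.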

Other observations

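Members with several annotated starts were also read start by start, each within 1 kb and tested among 40171 starts, of which 5.73% were called; 0 starts of the 8 members were called by edgeR, and 3 of the 12 tested had an unadjusted p under 0.05, beside 22.2% of all starts. The start of Serpinb7 that RefSeq lists lies 23 kb inside the 5′-most one (chr1, 107422689) and held 6, 12 and 38 cut sites before and 30, 30 and 31 after injury. At the Serpinb2 start 107522230, 2, 4 and 0 cut sites stood against 43, 16 and 8, groups that did not overlap in CPM, and the counts were below the filter. The share of all starts with such groups was not counted. At the second Serpinb12 start (106938953) there were 2, 2 and 2 cut sites before and 7, 7 and 13 after injury, also below the filter. The second Serpinb11 start (107361929), whose window overlaps that of the first, had 1.42, 1.01 and 1.33 CPM before and 1.51, 1.89 and 2.06 CPM after injury (log2 change 0.54, edgeR adjusted p = 0.41).

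Outside the HBC-like clusters Serpinb2 also held cut sites before injury. In the unnamed cluster 5 it stood at 5.89 CPM in uninjured and 4.41 CPM in injured cells, and in the neuron-like cluster 8 at 4.33 and 1.05 CPM. Serpinb5 in cluster 5 was at 3.00 and 6.94 CPM. These values are pooled over cells of a group, with no test. Among the chromosome 13 relatives, groups did not overlap at 3 of the 9 tested over all cells, against 27.3% of all promoters. Serpinb9, an inhibitor of granzyme B, had 1.68, 1.30 and 0.881 CPM before and 3.19, 3.36 and 1.84 CPM after injury (log2 change 1.14, edgeR adjusted p = 0.098). It was chosen after its values had been seen. Serpinb6a (log2 change −0.25, edgeR adjusted p = 0.097) and Serpinb6c (log2 change −0.49, edgeR adjusted p = 0.37) were lower after injury.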
